A study of Caenorhabditis elegans with 12 samples.

Results

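The comparison described here set worms grown on high glucose (Glu) against untreated worms (Control), and its members were all mature miRNAs of the deposited count table, 263 of 263 distinct names. Both groups were wild-type Caenorhabditis elegans of strain N2, sampled as whole animals after 5 d of culture from the L4 larval stage at 20 °C on the bacterium OP50, and there were 3 libraries of each. Glu worms had 2% glucose in the medium and Control worms had none added, while neither group received DMSO or naringin (Nar). The series also holds 3 libraries each of glucose with DMSO (DMSO + Glu) and of glucose with Nar in DMSO (Nar + Glu), which did not enter the tests. Both of these groups had 2% glucose and 0.1% DMSO, and Nar + Glu had 25 μM Nar. Because whole animals were sequenced, a lower count can come from fewer cells of a type or from less RNA per cell, and these cannot be told apart. The labels number the replicates without saying whether they were separate cultures, so p-values measure the spread between these libraries, which may be technical.

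A miRNA is a short RNA cut from a hairpin precursor, and it lowers the output of mRNAs that pair with it. Pairing rests mainly on the seed, the bases near its 5′ end, so miRNAs with the same seed form a family with largely shared targets. Each hairpin can yield a 5p and a 3p arm. Usually one arm is loaded into Argonaute and kept, and the other, called the scarcer arm here, is mostly degraded. Hairpins that lie next to each other in the genome are often cut from one transcript. In C. elegans the let-7 and lin-4 families time the larval stages, the miR-35 and miR-51 families act in embryos, and several miRNAs have been tied to lifespan and stress resistance, which are readouts often used for worms on high glucose.

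Of the 263 miRNAs, 223 passed the filter on low counts and were tested. The 40 not tested had mean counts of 1.33 to 11 over the 6 libraries and held 0.00469% of the Glu counts. Total counts were 4990586 to 5868806 in Control and 3033268 to 4029351 in Glu, so every Glu library was shallower than every Control library. Levels are given as CPM, read counts brought to a common library size after scaling of the 6 libraries with the trimmed mean of M-values (TMM), always in the order of replicates 1, 2 and 3. A fold change is the log2 ratio of Glu to Control (log2FC) from edgeR's quasi-likelihood test, with its standard error (SE), and Benjamini-Hochberg adjustment covered the 223 miRNAs tested.

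An adjusted p under 0.05 was reached by 19 of the 223 miRNAs, which is 8.52%. Of these, 8 rose in Glu (3.59% of those tested) and 11 fell (4.93%). Their log2FC ran from −1.05 to 1.08, and over all miRNAs tested the median was −0.00, with 111 higher and 112 lower. A change of over 1.5 times in either direction, with an unadjusted p under 0.05, was found for 31 miRNAs (13.9%), of which 12 were higher and 19 lower. For 70 miRNAs (31.4% of those tested) the Glu values did not overlap those of Control, and 17 of the 19 were among these. The exceptions, lsy-6-3p and miR-57-5p, overlapped by a single library each. The number called depended on single libraries. It was 13, 12 and 6 without Control replicates 1, 2 and 3, and 14, 4 and 44 without Glu replicates 1, 2 and 3. Of the 19, 8 were called in 2 or fewer of these 6 fits, namely miR-41-5p, miR-46-5p, lsy-6-3p, miR-34-3p, miR-80-5p, miR-58a-5p, miR-57-5p and miR-90-3p, and their highest edgeR adjusted p-values, all without Control replicate 3, were 0.115 to 0.261. All 19 kept their direction in these fits. When every library was thinned to the same total, 15 miRNAs passed, and 14 of the 19 were among them. The plot of the 19 by library shows these levels against the Control mean.

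**Figure D1:**
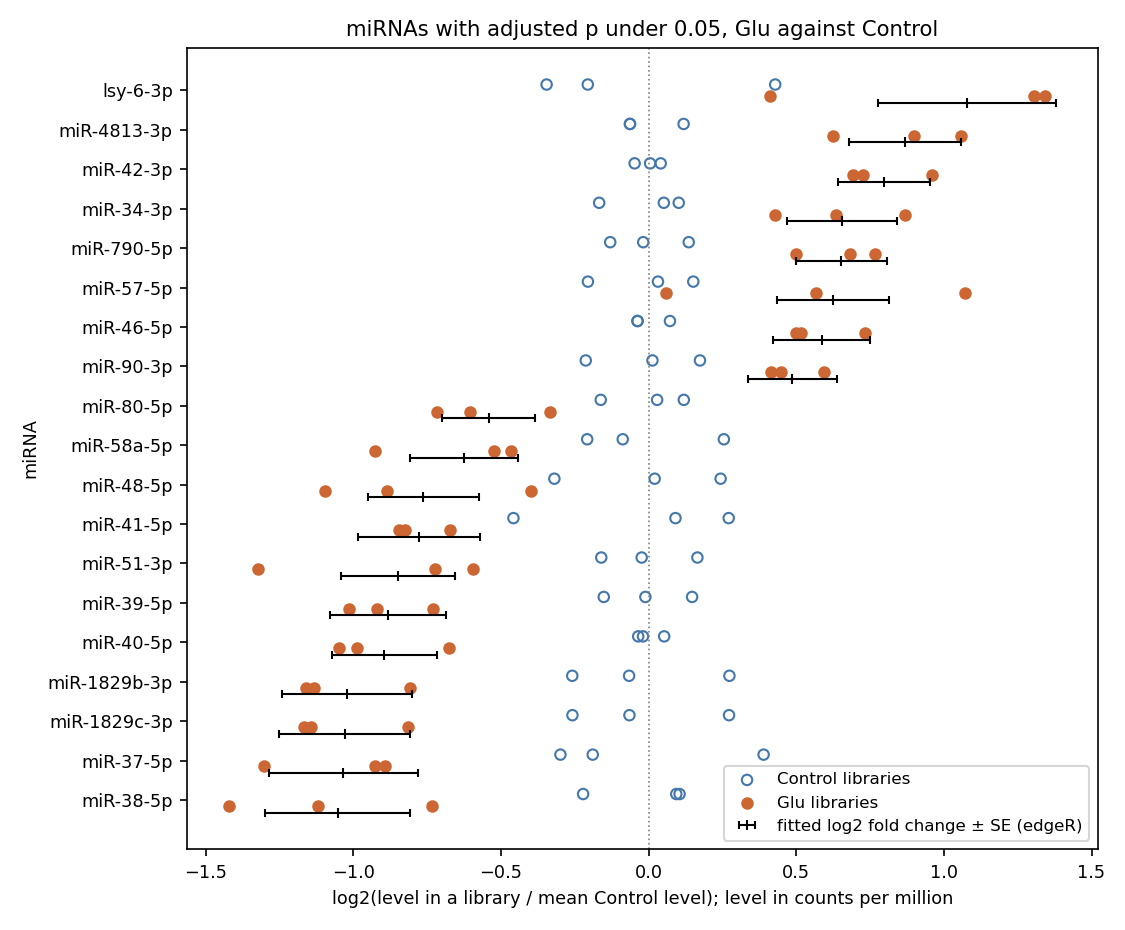
The level of each of the 19 miRNAs with an adjusted p under 0.05, as log2 of its CPM in a library over its mean Control CPM. Open circles are Control libraries, filled circles Glu libraries, and bars the fitted log2FC ± SE. The points of the 2 groups are apart except in lsy-6-3p and miR-57-5p.

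The miRNAs that make up most of the libraries were not among the 19. The 10 with the highest mean counts took 83.3% of all counts and were miR-1-3p, miR-58a-3p, miR-70-3p, miR-35-3p, miR-71-5p, miR-37-3p, miR-80-3p, miR-39-3p, miR-72-5p and miR-82-3p. Their log2FC lay between −0.23 and 0.34, and the lowest adjusted p among them was 0.202 (edgeR, miR-39-3p). The muscle miRNA miR-1-3p, the most abundant of all, stood at 359433, 544595 and 431575 CPM in Control and 492751, 370924 and 402349 CPM in Glu, and the groups overlapped widely. miR-58a-3p, of the miR-58 family, stood at 145944, 145098 and 90183 CPM in Control and 194128, 127049 and 85568 CPM in Glu. In both groups replicate 3 was the lowest for miR-58a-3p. miR-71-5p, which is needed for normal lifespan, had 39049, 40719.8 and 52946 CPM in Control and 37868, 38779.9 and 37326 CPM in Glu. Its groups did not overlap, but by a narrow margin (log2FC −0.22, SE 0.17, edgeR adjusted p = 0.451). The largest change among the 10 was that of miR-39-3p, a member of the miR-35 family, at 25525, 24253 and 22325 CPM in Control and 33576, 31964 and 25750.1 CPM in Glu (log2FC 0.34).

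The summed counts of the let-7 family were lower in worms on glucose, and this rested mostly on a single member, miR-48-5p. let-7 drives the passage from the last larval stage to the adult, and miR-48, miR-84 and miR-241 act together in an earlier larval transition. miR-48-5p stood at 15207, 19245 and 22465 CPM in Control and 8873, 10277 and 14387 CPM in Glu. The highest Glu library, replicate 3, lay just under the lowest Control library, replicate 1. Its log2FC was −0.76 (SE 0.19, edgeR adjusted p = 0.00842), and it was the most abundant of the 19 miRNAs. It was called in 3 of the 6 fits with a library left out, and its edgeR adjusted p was 0.183 without Control replicate 3. The Glu mean of miR-48-5p was 11179 ± 2866 CPM (SD, n = 3) against 18972 ± 3637 CPM (SD, n = 3) in Control.

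Counts were also summed over each of 17 seed families and tested with the remaining single miRNAs, 180 seed groups in all, of which 20 (11.1%) had an adjusted p under 0.05. The let-7 family was the only one of the 17 among them. Its sum was 20491, 25268 and 28339 CPM in Control and 13921, 15033 and 20027 CPM in Glu, without overlap (log2FC −0.60, SE 0.17, edgeR adjusted p = 0.0229). miR-48-5p made up 74.5% of these counts, and without it the sum of the other 6 members had a log2FC of −0.15 (edgeR adjusted p = 0.606). The call on the family was lost without Control replicate 2 or 3 or Glu replicate 1 or 2, at adjusted p-values of 0.0904 to 0.153 in edgeR. Of the 7 members, 3 were higher and 4 lower. miR-241-5p, the cluster neighbour of miR-48-5p, had 418, 504 and 652 CPM in Control and 294, 301 and 519 CPM in Glu (log2FC −0.50, edgeR adjusted p = 0.103). Only Glu replicate 3 reached into the Control range. miR-84-5p stood at 3020.3, 3157 and 3528 CPM in Control and 2804, 2839.5 and 2909 CPM in Glu. These groups were apart by a small margin (log2FC −0.18, edgeR adjusted p = 0.455). let-7-5p itself had 1775, 2299 and 1633 CPM in Control and 1877, 1541 and 2125 CPM in Glu, with full overlap and a log2FC of −0.04. The scarce members miR-793, miR-794-5p and miR-795-5p, at 10.9 to 54.3 CPM, had log2FC of 0.15 to 0.30. In the lin-4 family, which represses lin-14 in the first larval stage, lin-4-5p had a log2FC of 0.12 and miR-237-5p one of −0.26, and neither passed the test.

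The miR-35 family is abundant in oocytes and embryos and is needed for embryonic development. Here the mature 3p arms as a family did not pass the test, and 1 of them, miR-42-3p, was called and rose. Of the 8 opposite 5p arms 5 were called, all lower, beside 8.52% of all miRNAs tested. The family's 3p sum was 126630.0, 113907 and 103658 CPM in Control and 138262, 112718 and 116015 CPM in Glu (log2FC 0.09, SE 0.17, edgeR adjusted p = 0.798). Glu replicate 1 was the highest library and Control replicate 3 the lowest, with overlap between the groups. This sum rests on miR-35-3p, miR-37-3p and miR-39-3p. miR-35-3p stood at 47171, 43950.0 and 39173 CPM in Control and 47583, 36848 and 46855 CPM in Glu, and miR-37-3p had a log2FC of 0.01.

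miR-42-3p had the smallest p of all miRNAs. Its level was 277, 284 and 267 CPM in Control and 456, 446 and 537 CPM in Glu. The Control libraries lay close together and every Glu library was above them (log2FC 0.80, SE 0.16, edgeR adjusted p = 0.00383). The other 7 members of the family had log2FC between −0.12 and 0.34. Unlike miR-35 to miR-41, whose hairpins lie together on chromosome II (11537608 to 11538404, plus strand, assembly WBcel235), miR-42 lies with miR-43 and miR-44 further along that chromosome (11889811 to 11890118, plus strand). In that cluster miR-43-3p, of the miR-2 family, had 42.1, 50.5 and 40.1 CPM in Control and 58, 77 and 35 CPM in Glu (log2FC 0.35). Its Glu libraries spread around the Control range. miR-44-3p, whose counts are the same as those of miR-45-3p in every library and cannot be separated from them, had a log2FC of 0.11. Neither neighbour was called, but for miR-44 the shared counts cannot show whether its own 3p arm changed.

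The 5p arms of the same 8 hairpins were scarce. Together they came to 292.6, 260.6 and 295.1 CPM in Control and to 159.5, 143.6 and 170.9 CPM in Glu, so the groups did not overlap. miR-40-5p, the most abundant, stood at 100.4, 94.4 and 95.5 CPM in Control and 60.5, 46.7 and 48.7 CPM in Glu (log2FC −0.89, SE 0.18, edgeR adjusted p = 0.00383). It and miR-42-3p were the only miRNAs of the 19 that stayed under 0.05 whichever of the 6 libraries was left out. miR-39-5p had 49.9, 40.6 and 44.7 CPM in Control and 27.2, 22.3 and 23.8 CPM in Glu (log2FC −0.88, edgeR adjusted p = 0.00485). miR-38-5p had 14.7, 18.5 and 18.3 CPM in Control and 7.92, 6.42 and 10.3 CPM in Glu (log2FC −1.05, edgeR adjusted p = 0.00639). Both were lower in every Glu library than in any Control library. miR-37-5p was at 14.7, 15.9 and 23.7 CPM in Control, replicate 3 being the highest, and at 7.35, 9.78 and 9.54 CPM in Glu (log2FC −1.03, edgeR adjusted p = 0.00825). It was called in 3 of the 6 fits with a library left out, with an edgeR adjusted p of 0.118 without Control replicate 3. For miR-41 the 5p arm was the commoner one, at 61.6, 37.2 and 54.4 CPM in Control and 28.8, 28.4 and 32.1 CPM in Glu (log2FC −0.78, edgeR adjusted p = 0.016). Control replicate 2 was nearest to the Glu libraries. The 3 remaining 5p arms did not pass. miR-36-5p missed narrowly, at 24.6, 32.6 and 32.1 CPM in Control and 11, 12.8 and 27 CPM in Glu, where replicate 3 lay within the Control range (log2FC −0.80, edgeR adjusted p = 0.0515). miR-35-5p had a log2FC of −0.55 and miR-42-5p one of −0.33.

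**Figure D2:**
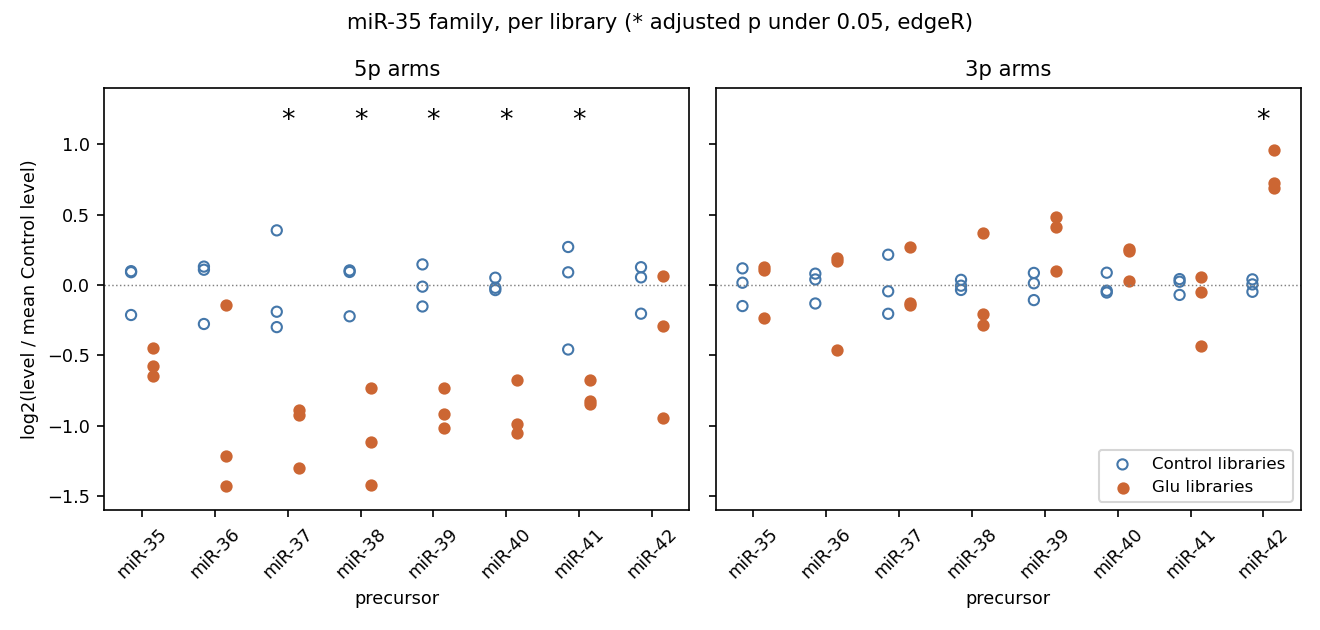
The 5p (left) and 3p (right) arms of miR-35 to miR-42 in each library, as log2 of the CPM over the mean Control CPM. The 5p arms of miR-37 to miR-41 (stars, adjusted p under 0.05) lie below the Control libraries, and of the 3p arms miR-42 alone has a star.

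Among the larger families, the miR-51 family had all 6 of its members higher in Glu, beside 111 of the 223 miRNAs tested. Neither its sum nor any member passed the test. This family is needed in embryonic development and is expressed in most cells. Its sum was 24237, 23639.9 and 20557 CPM in Control and 27789, 31792 and 25943 CPM in Glu (log2FC 0.32, SE 0.16, edgeR adjusted p = 0.208). The groups did not overlap, the lowest Glu library lying just above the highest Control library. miR-52-5p held 49.1% of the counts, at 11428, 11458 and 8971 CPM in Control and 15039, 17248 and 12719 CPM in Glu (log2FC 0.50, edgeR adjusted p = 0.0604). The log2FC of the other 5 members ran from 0.00 for miR-51-5p to 0.35 for miR-56-3p. The called molecule of this group was instead the scarcer arm miR-51-3p, which does not carry the family seed, at 111, 126 and 101 CPM in Control and 68.2, 74.5 and 45 CPM in Glu (log2FC −0.85, SE 0.19, edgeR adjusted p = 0.00561). Glu replicate 3 was the lowest library of the 6.

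In the miR-58 family, an abundant relative of bantam that affects body size and dauer formation, no 3p arm was called and 2 scarcer arms were. Its 3p sum was 197628, 192497 and 136159 CPM in Control and 253058, 181111 and 130186 CPM in Glu (log2FC 0.10, edgeR adjusted p = 0.803). All 4 members counted were higher here too, with log2FC of 0.09 to 0.18. The scarcer arms miR-80-5p and miR-58a-5p both fell. miR-80-5p had 686, 783 and 834 CPM in Control and 467, 505 and 609.8 CPM in Glu (log2FC −0.54, edgeR adjusted p = 0.0273). miR-58a-5p had 113, 123 and 156 CPM in Control and 68.7, 94.4 and 90.9 CPM in Glu (log2FC −0.63, edgeR adjusted p = 0.029). Neither overlapped between groups, whereas their partner arms miR-80-3p and miR-58a-3p had log2FC of 0.09 and 0.09 with overlapping groups.

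In the miR-50 family all 3 members were higher and miR-90-3p rose. miR-90-3p stood at 1565, 1399 and 1197 CPM in Control and 1848, 1890.2 and 2093 CPM in Glu, without overlap (log2FC 0.49, SE 0.15, edgeR adjusted p = 0.0424). It was called in only 1 of the 6 fits with a library left out, and its adjusted p was 0.232 in edgeR without Control replicate 3. miR-62 was at 33.8, 46.3 and 44.2 CPM in Control and 59.4, 64.2 and 52.2 CPM in Glu (log2FC 0.50, edgeR adjusted p = 0.0885), and miR-50-5p had a log2FC of 0.23. Their sum did not pass (log2FC 0.37, edgeR adjusted p = 0.12). The 3 members of the miR-72 family were also higher, led by miR-73-3p, which was just outside the threshold at 1967, 1998 and 2297 CPM in Control and 2512, 3122 and 3034 CPM in Glu (log2FC 0.47, edgeR adjusted p = 0.0515). Its groups did not overlap. The other families had summed log2FC between −0.35 (miR-238 family) and 0.34 (miR-87 family). Over the 17, 10 sums were higher and 7 lower, and 4 had an unadjusted p under 0.05. The plot of seed families sets each sum beside its members.

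**Figure D3:**
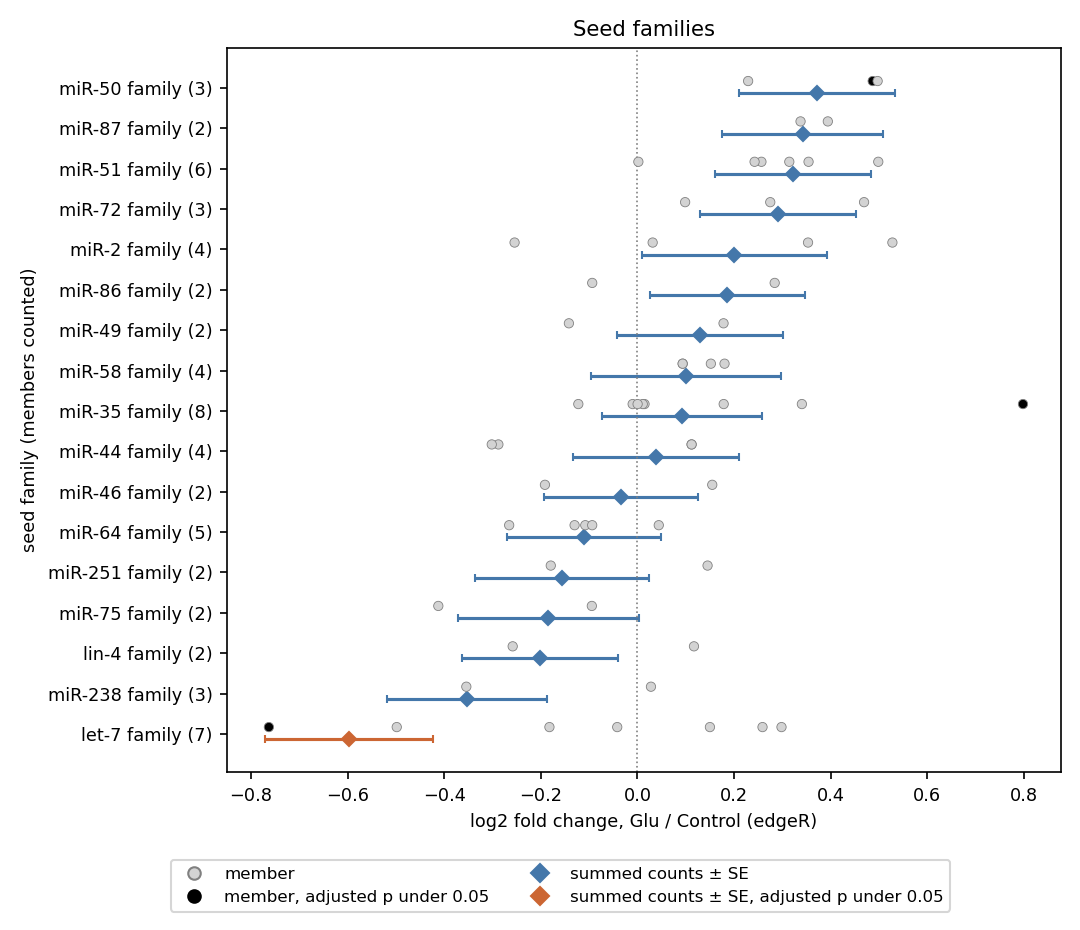
The log2FC of Glu against Control for 17 seed families with the number of members counted. Diamonds are summed counts with their SE and circles are single members. The let-7 family alone has a sum with an adjusted p under 0.05, at −0.60, and its lowest member is miR-48-5p at −0.76.

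The remaining called miRNAs were single loci or neighbours of another miRNA. miR-57-5p, which acts with the Hox gene nob-1 in patterning the posterior of the worm, was at 2766, 3260.2 and 3542 CPM in Control and 3324, 4725 and 6701 CPM in Glu (log2FC 0.62, SE 0.19, edgeR adjusted p = 0.0385). Glu replicate 1 lay within the Control range, so the groups overlapped. lsy-6-3p, which sets the left-right difference of a pair of taste neurons, had the largest log2FC of the 19 at 1.08 (SE 0.30, edgeR adjusted p = 0.0232) and the lowest counts. It was read 21, 31 and 22 times in Control and 41, 37 and 23 times in Glu, or 3.97, 6.16 and 3.60 CPM against 11.6, 11.3 and 6.09 CPM. Glu replicate 3 was just under Control replicate 2. miR-790-5p was at 454, 378 and 408 CPM in Control and 584, 704 and 663 CPM in Glu (log2FC 0.65, edgeR adjusted p = 0.00677). Its groups were well apart.

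Both scarcer arms miR-34-3p and miR-46-5p rose. miR-34 is conserved from worms to humans, where it responds to p53, and in worms it has been tied to stress responses and ageing. miR-34-3p was at 37.2, 43.3 and 44.9 CPM in Control and 56.3, 76.4 and 64.9 CPM in Glu (log2FC 0.65, edgeR adjusted p = 0.0252). The commoner arm miR-34-5p was at 398, 385 and 469 CPM in Control and 395, 451 and 413 CPM in Glu (log2FC 0.01), with overlapping groups. miR-46-5p was at 137, 137 and 147 CPM in Control and 198, 233 and 200.3 CPM in Glu (log2FC 0.59, edgeR adjusted p = 0.0232), and its partner miR-46-3p had a log2FC of 0.15.

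Of the 61 miRNAs tested whose hairpin lies in a protein-coding gene on the same strand, 5 were called (8.2%, against 8.52% of all), with miR-4813-3p and miR-90-3p higher and miR-58a-5p, miR-1829b-3p and miR-1829c-3p lower. Of the 28 in a gene on the opposite strand 5 were called (17.9%), all of them the 5p arms of miR-37 to miR-41 in Y62F5A.9. The hairpins of miR-90 and miR-58a lie in introns of K01F9.2 and Y67D8A.2. The hairpin of miR-4813 overlaps an exon of idhg-1, a subunit gene of mitochondrial isocitrate dehydrogenase, on the same strand (chromosome III, 4571640 to 4571716). miR-4813-3p was at 30.6, 30.6 and 34.7 CPM in Control and 59.7, 66.6 and 49.3 CPM in Glu (log2FC 0.87, SE 0.19, edgeR adjusted p = 0.00469). miR-1829c-3p, from an intron of piki-1 (X chromosome, 15236362 to 15236423), was at 36.7, 29 and 25.4 CPM in Control and 17.3, 13.7 and 13.5 CPM in Glu (log2FC −1.03, edgeR adjusted p = 0.00469). miR-1829b-3p, from an intron of F20D1.3 (X chromosome, 14977119 to 14977178), had a log2FC of −1.02. The counts of these last miRNAs were equal in 8 of 12 libraries, so they count as a single measurement.

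Clusters were formed from hairpins on the same strand with at most 5000 bases between neighbours, which gave 20 clusters of 51 of the 165 precursors placed at 1 locus. Counts of both arms were summed by locus, and 3 of the 119 loci tested (2.52%) had an adjusted p under 0.05. The only cluster among them was that of miR-48 and miR-241 on chromosome V (14364412 to 14366283, minus strand). It had 15700.1, 19816 and 23189 CPM in Control and 9217, 10645 and 14972 CPM in Glu (log2FC −0.75, SE 0.19, edgeR adjusted p = 0.0306). All 4 of its arms were lower, but miR-48-5p was 96.8% of its counts. Without Control replicate 3, Glu replicate 1 or Glu replicate 2 the adjusted p of this cluster was 0.244, 0.0773 and 0.237 in edgeR. The other called loci were single hairpins. miR-1829b had 38.7, 32.8 and 29.6 CPM in Control and 21.2, 16.8 and 16.4 CPM in Glu, and miR-1829c had 53.9, 47.9 and 47.7 CPM in Control and 32.5, 30.2 and 29.7 CPM in Glu. They are not independent of each other, since their 3p arms, with nearly equal counts, made up 87.3% and 57.0% of these sums.

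The sign of the log2FC differed between arms in some clusters and not in others, and no cluster held called arms of opposite direction. The cluster of miR-35 to miR-41 lies inside an intron of Y62F5A.9 on the opposite strand. Of its 14 arms 5 were called, beside 8.52% of all miRNAs tested. All 5 were 5p arms that fell, while the sum of the locus had a log2FC of 0.09 (edgeR adjusted p = 0.787). In the cluster of miR-73, miR-74 and miR-75 the sum stood at 2465, 2537 and 2858 CPM in Control and 2984, 3668 and 3488 CPM in Glu (log2FC 0.37, edgeR adjusted p = 0.106). Of its 6 arms 3 were higher and 3 lower. The cluster of miR-228 and miR-790 held 1 called arm, miR-790-5p, among 4 arms that were all higher, and its sum had a log2FC of 0.17. The cluster of miR-51 and miR-53 had a summed log2FC of 0.02, although miR-51-3p fell. Of all arms tested, 77 lay in clusters, with 2 that rose and 8 that fell, and 146 did not, with 6 that rose and 3 that fell. These counts were not tested against each other, and 5 of the 8 are the 5p arms of a single transcript unit.

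Most of the miRNAs that fell were 5p arms, and most were the scarcer arm of their hairpin. By arm, 3 of 97 tested 5p arms rose and 8 fell (11.3% called, beside 8.52% over all). Of 111 tested 3p arms, 5 rose and 3 fell (7.21%). By abundance, 3 of 77 scarcer arms rose and 7 fell (13%), and 4 of 91 commoner arms rose and 4 fell (8.79%). Of the 8 5p arms that fell, 5 were those of miR-37 to miR-41 from a single cluster, and all of these but miR-41-5p were scarcer arms. Among the other miRNAs that fell, 5p and 3p arms were equally many, and so were scarcer and commoner arms. The 1 called miRNA without a counted partner was lsy-6-3p. The median log2FC was −0.17 over the scarcer and 0.04 over the commoner arms. No hairpin had both arms called. Of the 77 precursors with a mean count of at least 10 for each arm, 41 had arms of opposite sign, and in 32 of these the scarcer arm was the lower one.

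The ratio of 5p to 3p counts within a library does not depend on the scaling of that library, and it was tested with limma over these 77 precursors. An adjusted p under 0.05 was reached by 5 (6.49%), and 24 (31.2%) had ratios that did not overlap between the groups. The log2 ratio of miR-40 was −4.47, −4.41 and −4.41 in Control and −5.35, −5.50 and −5.67 in Glu. That is a difference of −1.08 (SE 0.18, limma adjusted p = 0.00634), to which the 5p arm gave −0.89 and the 3p arm 0.18. The log2 ratio of miR-39 was −9.00, −9.22 and −8.96 in Control and −10.26, −10.48 and −10.07 in Glu (difference −1.21, SE 0.20, limma adjusted p = 0.00634). In these hairpins the 5p arm is the scarcer one and became scarcer still against its partner. In the miR-35 family the difference was below 0 in all 8 precursors, from −0.55 for miR-35 to −1.21 for miR-39, and the ratios of miR-36 and miR-41 overlapped between the groups.

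For miR-73 the log2 ratio was −4.35, −4.45 and −4.67 in Control and −4.98, −5.56 and −5.38 in Glu (difference −0.82, SE 0.21, limma adjusted p = 0.0496). For miR-51 it was 5.93, 5.65 and 5.84 in Control and 6.50, 6.41 and 7.13 in Glu (difference 0.88, SE 0.23, limma adjusted p = 0.0496). Here the 3p arm is the scarcer one, so in both hairpins the scarcer arm was lower against its partner. miR-4813 went the other way, with a log2 ratio of 2.92, 3.16 and 3.47 in Control and 1.66, 1.70 and 2.50 in Glu (difference −1.23, SE 0.27, limma adjusted p = 0.03). Its scarcer 3p arm was the one that rose. The number of calls moved with the libraries in the fit. In limma 0 were left whichever of the 3 Control libraries was left out, 3 and 4 precursors passed without Glu replicates 1 and 2, and 14 without Glu replicate 3. The median difference of the 8 precursors of the miR-35 family was −1.01 with all libraries, −1.09, −1.02 and −0.93 without Control replicates 1, 2 and 3, and −0.77, −1.01 and −1.21 without Glu replicates 1, 2 and 3. The fits without a Control library had 13 to 17 precursors with an unadjusted p under 0.05.

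**Figure D4:**
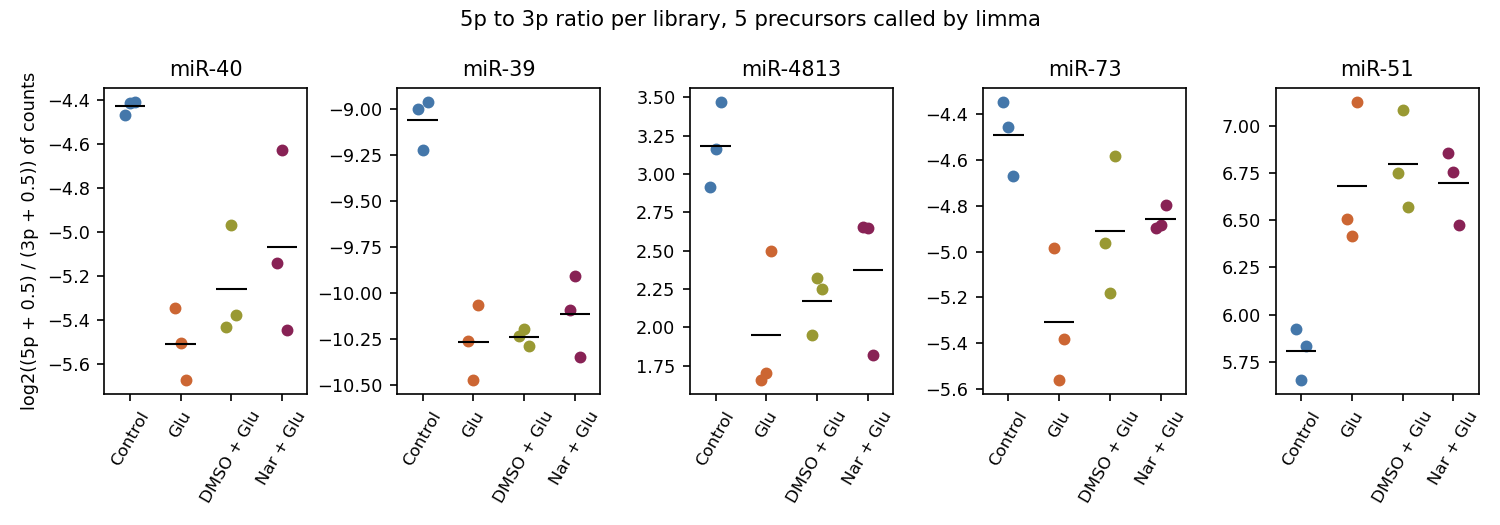
The log2 ratio of 5p to 3p counts (each plus 0.5) in every library of the 4 groups for the 5 called precursors, with group means as lines. The y axes differ between panels. For each precursor the 3 Control libraries lie apart from the 3 Glu libraries, and the other 2 groups did not enter the test.

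Over all 77 precursors the scarcer arm was lower against the commoner arm in 53, with a median difference of −0.26. Outside the miR-35 family this held in 46 of 69, with a median of −0.22. The count was 33 of 49 where the scarcer arm was the 5p arm and 20 of 28 where it was the 3p arm. Taken per library, the median of the scarcer to commoner log2 ratio over precursors, centred on each precursor's mean, was 0.07, 0.09 and 0.17 in Control and −0.08, −0.15 and −0.05 in Glu. The Glu libraries were all below the Control libraries by 0.21 on average (two-sided exact permutation test over 20 assignments, p = 0.1, the smallest p that 3 against 3 allows). The Glu libraries were shallower than those of Control, and with every library thinned to the same total the difference was −0.18. The same median, centred over all 12 libraries, was 0.01, 0.07 and 0.20 in Control and −0.17, −0.18 and −0.11 in Glu, but −0.10, −0.01 and 0.07 in DMSO + Glu and 0.12, 0.29 and 0.08 in Nar + Glu. DMSO + Glu thus overlapped Control and lay above Glu only by a narrow margin, at −0.10 against −0.11 in the nearest libraries. Nar + Glu lay within or above the Control range. The plot of both arms shows most precursors below the line of equal change.

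**Figure D5:**
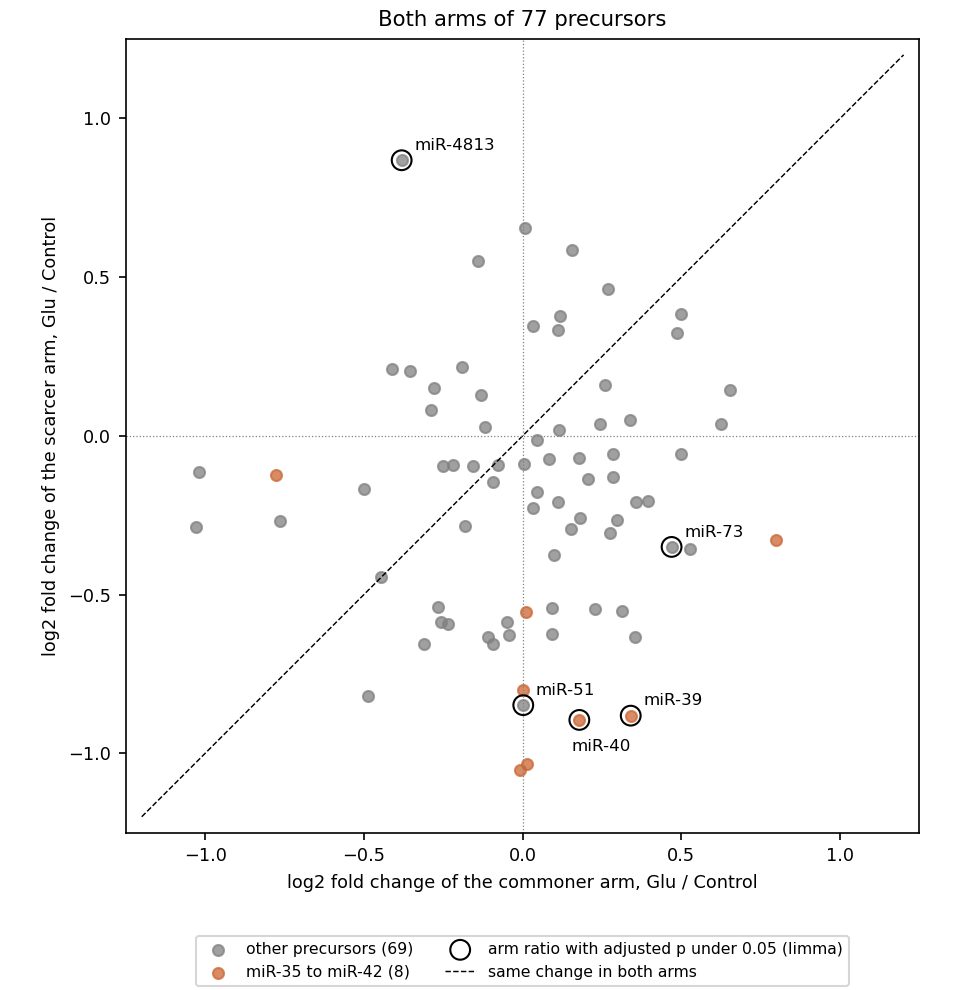
Each point is a precursor, with the log2FC of its commoner arm on the x axis and of its scarcer arm on the y axis. Points below the dashed line, 53 of 77, have a scarcer arm that is lower against its partner in Glu, and circles mark the 5 called by limma.

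Lists of miRNAs with known roles or tissues held 2 calls among the 24 distinct miRNAs tested (8.33%), close to the 8.52% over all miRNAs. Of 10 miRNAs tied to ageing or stress, 9 were tested and 0 called by edgeR at an adjusted p under 0.05, with 5 higher, 4 lower and a median log2FC of 0.01 beside −0.00 over all miRNAs. At an unadjusted p under 0.05 the list had 1, miR-238-3p, at 2966, 3048 and 3772 CPM in Control and 2243, 2582 and 2831 CPM in Glu (log2FC −0.35, edgeR adjusted p = 0.144). miR-246-3p, whose level in adults has been linked to later survival, was at 3212, 3149 and 3416 CPM in Control and 2794, 2562 and 2702 CPM in Glu (log2FC −0.28, edgeR adjusted p = 0.221). Neither overlapped between the groups. Of 3 miRNAs linked to food or nutrition, miR-235-3p, which in larvae ties cell quiescence to feeding, had 374, 380.1 and 391 CPM in Control and 334, 420.4 and 418 CPM in Glu (log2FC 0.03). The log2FC of the other members, miR-80-3p and miR-71-5p, are given above.

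Markers of tissues were compared in the same way. The embryo and germ line marker set, the 3p arms of the miR-35 family, summed to 103658 to 126630 CPM in Control and 112718 to 138262 CPM in Glu, and 1 of its 8 members, miR-42-3p, was called. The intestinal miRNAs miR-60-3p and miR-243-3p summed to 1527 to 1792 CPM in Control and 1513 to 1841 CPM in Glu. The neuronal markers lsy-6-3p, miR-124-3p and miR-791-3p summed to only 14.4 to 18.5 CPM in Control and 14.6 to 26.0 CPM in Glu, and lsy-6-3p alone was called. Each summed range overlapped between the groups, and their part in the results above was not tested.

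Just inside the threshold lay miR-58a-5p, miR-57-5p and miR-90-3p, with edgeR adjusted p-values of 0.029, 0.0385 and 0.0424. Just outside it, miR-36-5p, miR-73-3p, miR-788-5p and miR-4926 shared an edgeR adjusted p of 0.0515. miR-788-5p was at 44.4, 48.7 and 51.1 CPM in Control and 19.5, 35.7 and 36.3 CPM in Glu, and miR-4926 at 9.83, 6.16 and 7.04 CPM in Control and 3.68, 4.58 and 3.97 CPM in Glu. Both were lower in every Glu library.

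The other glucose groups, read against the same Control libraries, give context for the members named. On a scale set over all 12 libraries, miR-42-3p was at 293 to 304 CPM in Control, 478 to 600 CPM in Glu, 541 to 614 CPM in DMSO + Glu and 660 to 723 CPM in Nar + Glu. miR-48-5p was at 16338 to 24710 CPM in Control, 10267 to 16098 CPM in Glu, 10802 to 10910 CPM in DMSO + Glu and 8164 to 9749 CPM in Nar + Glu. miR-40-5p was at 101 to 108 CPM in Control, 50.2 to 70.0 CPM in Glu, 65.4 to 71.1 CPM in DMSO + Glu and 62.3 to 75.4 CPM in Nar + Glu. For miR-42-3p, miR-48-5p and miR-40-5p the Control range stood apart from those of the glucose groups. miR-4813-3p was at 32.8 to 38.2 CPM in Control, 55.1 to 71.5 CPM in Glu, 56.1 to 75.3 CPM in DMSO + Glu and 93.9 to 113 CPM in Nar + Glu. Some called miRNAs did not follow this pattern. In 6 of the 19 the range of DMSO + Glu or of Nar + Glu reached into that of Control. The 19 were called against these same Control libraries, so ranges apart from Control are in part built in. The share over all miRNAs tested was not taken, so this count has nothing to be set against. lsy-6-3p was at 3.96 to 6.61 CPM in Control, 6.82 to 13.4 CPM in Glu, 4.46 to 7.45 CPM in DMSO + Glu and 7.31 to 10.2 CPM in Nar + Glu, so that on this scale its Control and Glu libraries just missed each other. miR-80-5p was at 737 to 917 CPM in Control, 540.3 to 682 CPM in Glu, 632 to 786 CPM in DMSO + Glu and 469 to 710.4 CPM in Nar + Glu. DMSO + Glu also overlapped Control in miR-1829b-3p and miR-1829c-3p, the latter at 27.9 to 39.4 CPM in Control, 14.8 to 20.0 CPM in Glu, 22.3 to 30.8 CPM in DMSO + Glu and 15.6 to 21.4 CPM in Nar + Glu. Nar + Glu overlapped Control in miR-790-5p, at 470.1 to 613 CPM against 405 to 488 CPM, and in miR-38-5p, at 11.7 to 21.9 CPM against 15.8 to 20.2 CPM. No test of the groups with DMSO was made here.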

How the data were processed

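Small RNA was sequenced from whole N2 worms, and the 3 Control and 3 Glu libraries were compared. Per the labels and the methods of the study, the authors filtered reads by base-call quality, trimmed them with Cutadapt 1.14, removed short fragments and quantified miRNAs with mirdeep2 0.0.8. The values deposited by the authors are raw read counts per mature miRNA, neither normalized nor pooled. A poly(A) enrichment step is listed in the labels for these libraries too. For the miRBase release, and for how reads with several possible hairpins were assigned, the sources used here give nothing. Of 268 entries, 5 were second entries of a repeated name, and the entry with the higher total was kept.

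The deposited counts were tested with edgeR 4.0.16 (filterByExpr by group, TMM, quasi-likelihood test, no covariate, Benjamini-Hochberg adjustment) in R 4.3.3 on these 6 libraries. Sums by seed family and by locus used the same library sizes and factors. The log2 ratio of arms (pseudocount 0.5, mean count of at least 10 for both arms) was tested with limma 3.58.1, and the median over precursors with an exact permutation test. Seed families were taken from a written list of 61 members and were not checked on sequence, since no miRNA sequences were used here. In that list miR-54 to miR-56 enter the miR-51 family as 3p arms and miR-797 the miR-2 family as its 5p arm, which departs from the arms first written down, and a single miRNA outside it may share a seed with another. Hairpin positions and host genes come from the WBcel235 annotation, in which 165 of 169 precursors had 1 place.

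Named are all miRNAs, families of 2 or more, loci and arm ratios with an adjusted p under 0.05. Also named are the 10 most abundant miRNAs, members of the families and clusters that hold a called miRNA, and those just inside and outside the threshold. Single miRNAs that passed in the fit of seed groups were not listed for that fit. Members and lists were chosen with earlier results of these data known. Over all miRNAs together, replicates of a group differed by more than counting noise (chi-square per degree of freedom 237 to 707). Of the 19 called miRNAs, 14 had an SD above the counting SD in both groups, while in miR-40-5p and miR-4813-3p (Control) and in miR-39-5p, miR-37-5p and miR-41-5p (Glu) the SD was below it. The procedures were tested on simulated data. Alternatives were other scalings, filters and tools (DESeq2 1.42.0), all 12 libraries in 1 fit, a replicate block, other cluster distances, thinning to equal totals and each library left out in turn. Plots were drawn with matplotlib.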

Additional observations from a re-analysis of the deposited data

How the results depend on the processing

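All 19 called miRNAs kept their direction under every alternative in which they were tested. These fits used the libraries that made the calls, and 17 of the 19 had groups without overlap, so a reversal was unlikely beforehand. The 19 calls became 36 (20 higher, 16 lower) with all 12 libraries in 1 fit, and 13 (4 higher, 9 lower) with total counts alone against 8 higher and 11 lower with TMM, although that scaling moved the median log2FC by only 0.01. DESeq2 made 25 calls and no filter 21. With each library left out there were 4 to 44 calls. Past the fold threshold the 31 miRNAs became 17 with a mean count of at least 100, and 22 to 40 with a library left out. The 20 seed groups became 9 with total counts alone, 31 with 12 libraries, and 7 to 33 with a library left out (10 and 7 without Control replicates 2 and 3, and 12, 8 and 33 without Glu replicates 1, 2 and 3). The adjusted p of the let-7 family was 0.0785 with total counts alone (edgeR). The 3 loci became 6 with the size factors of DESeq2, 21 with 12 libraries, 5 with neighbours at most 1000 bases apart, and 0 to 21 with a library left out (5, 8 and 0 without Control replicates 1, 2 and 3, and 0 and 21 without Glu replicates 2 and 3). The 5 arm ratios became 10 with 12 libraries, 15 with edgeR's diffSpliceDGE, 9 with a mean count of at least 50, 9 with thinned libraries and 0 to 14 with a library left out (0 without each Control replicate, and 3 and 14 without Glu replicates 1 and 3). Thinning and the fit without the let-7 member miR-48-5p were chosen after seeing the data, as were the counts without one name of each equal pair (18 calls) and the scarcer arm without the miR-35 family (−0.16). The median difference of the scarcer arm was −0.26 to −0.18 with a library left out, the former without Control replicate 1. The cause of these changes was not tested, and each fit with a library left out also had fewer samples.

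Libraries of the same number in Control and Glu had correlations of 0.20, 0.08 and 0.27 between their deviations from the group means. One was under 0.1, so the number was not taken to pair samples, although each library correlated best with its own number. With the replicate block the calls became 47 miRNAs (20 higher, 27 lower), 39 seed groups, 6 loci and 15 arm ratios, and all 19 miRNAs were among the 47. Seeds of bases 2 to 7 were not run, since no miRNA sequences were used here. Depth limits the miRNAs not tested, which had a mean count of at most 11.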
